A study of Mus with 10 samples.

Results

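The 10 genes examined here encode the SLAM family receptors of lymphocytes, the small SH2-domain adaptors that carry their signals, and a further SH2-domain adaptor, TSAd. They were chosen by name, as the 7 receptor genes *Cd244*, *Cd48*, *Slamf7*, *Ly9*, *Cd84*, *Slamf1* and *Slamf6* and the 3 adaptor genes *Sh2d1b1*, *Sh2d1a* and *Sh2d2a*. All 10 were found among the 24564 genes of the deposited count table, and 9 of them passed the filter on low counts that left 11463 genes for testing. *Slamf6* did not pass.

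SLAM receptors are immunoglobulin-type surface proteins of blood cells. Most of them bind a second copy of themselves on a neighbouring cell, whereas CD244 (2B4) binds CD48. The tails of most of these receptors carry tyrosine motifs that recruit the adaptors SAP (*Sh2d1a*) and EAT-2 (*Sh2d1b1*). SAP brings the kinase Fyn to the receptor, and EAT-2 couples it to phospholipase Cγ in natural killer (NK) cells. Without an adaptor the same motifs can recruit inhibitory phosphatases, and CD244 is best known in NK cells for working in either direction. TSAd (*Sh2d2a*) is a T cell adaptor that binds the kinase Lck and is not a member of the SAP family.

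Type 1 innate lymphoid cells (ILC1s), which are relatives of NK cells that stay in tissues, were sorted from the livers of C57BL/6 mice, male or female and aged 6 to 8 weeks. There were 5 libraries from *Ncr1*+/+ mice and 5 from *Ncr1*gfp/gfp mice, which lack the activating receptor NKp46 because *gfp* replaces its gene, *Ncr1*. *Ncr1*+/+ ILC1s were gated as lineage-negative, NK1.1+, NKp46+, CD49b- and CD49a+ cells, and *Ncr1*gfp/gfp ILC1s in the same way with GFP in place of NKp46, so that the marker used for sorting differed with the genotype. Each library was made from 2 ng of RNA. The libraries held between 15796253 and 22623133 counts, with no difference between the genotypes beyond that spread (p = 0.254 in an exact permutation test, two-sided), and 3 counts corresponded to 0.132 to 0.1905 CPM (counts scaled to library size). *Ncr1* itself fell from between 1913 and 2144 CPM in *Ncr1*+/+ libraries to between 141 and 356 CPM in *Ncr1*gfp/gfp libraries, with a log2 fold change of -2.97 (edgeR quasi-likelihood test with Benjamini-Hochberg adjustment, adjusted p = 2.64e-09). *Itga1*, which encodes the CD49a of the gate, was at a mean of 779 CPM in *Ncr1*+/+ ILC1s and 971 CPM in *Ncr1*gfp/gfp ILC1s. Its log2 fold change was 0.32 (adjusted p = 0.000481 in the same edgeR test), and the libraries of the genotypes did not overlap.

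The question was whether the transcripts of this receptor system differ between ILC1s with and without NKp46. No SLAM receptor or adaptor gene was called, a call being an adjusted p-value under 0.05 together with a fold change above 1.5 or below 0.7. Over all 11463 tested genes, 84 were called, or 0.733%. With no condition on the fold change, 1 of the 9 tested genes of the system passed, and it was *Cd244*, whereas 155 genes, or 1.35%, passed over all genes. At an unadjusted p-value under 0.05, 4 of the 9 passed, *Cd244* and *Sh2d1b1* being higher and *Ly9* and *Cd84* lower in *Ncr1*gfp/gfp ILC1s, and DESeq2 also gave 4, beside 1303 of all tested genes, or 11.4%. The median log2 fold change of the 9 genes was 0.08, beside 0.0027 over all tested genes, and the individual values lay between -0.20 and 0.43. In bulk RNA, fewer cells that carry a transcript and less of it per cell cannot be told apart.

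**Figure D1:**
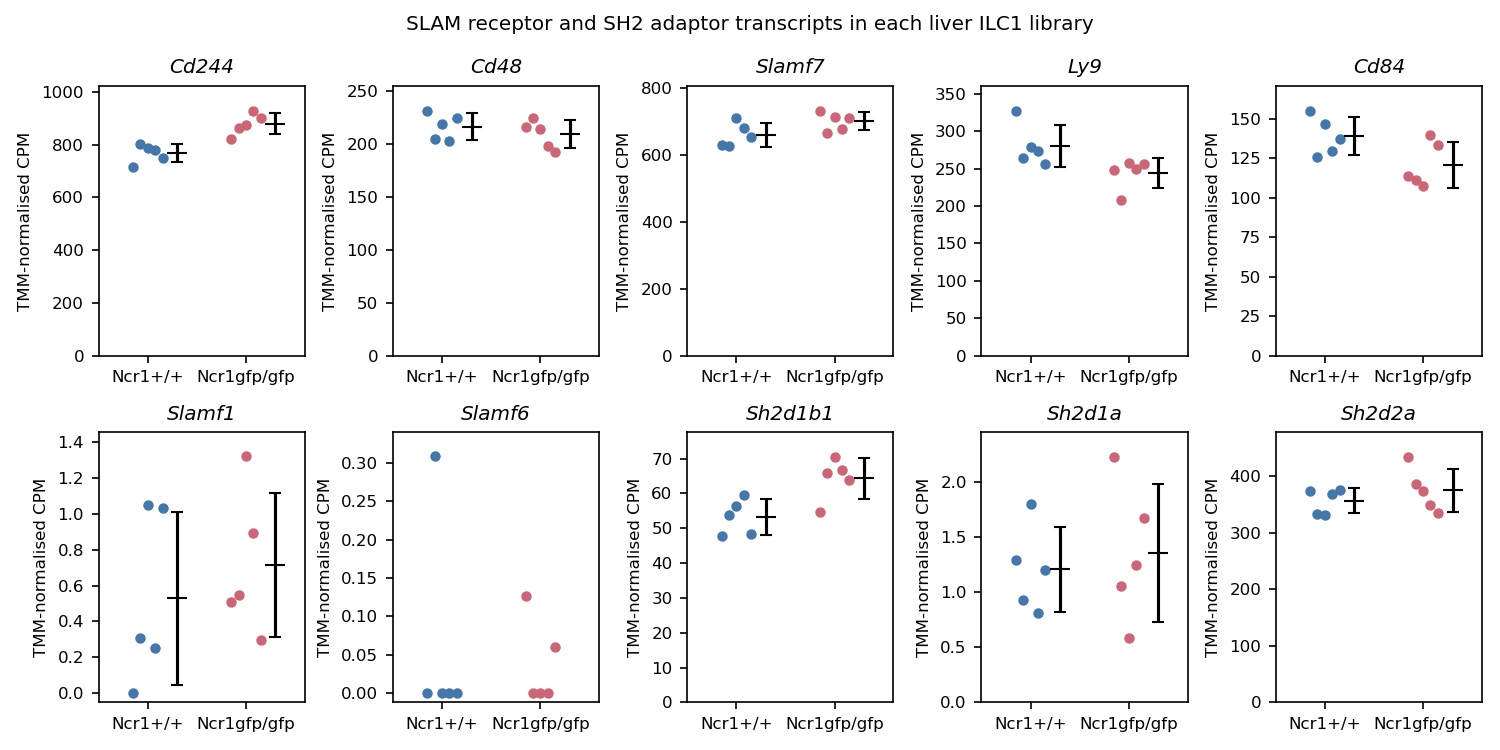
TMM-normalised CPM of the 7 receptor and 3 adaptor genes, with each point 1 library, *Ncr1*+/+ in blue and *Ncr1*gfp/gfp in red, and the horizontal tick and bar the mean and SD of 5 libraries. All panels show a true zero. *Slamf6* has no mean or bar, since it was at 0 counts in 7 of 10 libraries. *Cd244* is the gene whose red points all lie above its blue points.

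*Cd244* encodes the receptor for CD48 and lies on chromosome 1 (positions 173489324 to 173515447, plus strand) in the deposited coordinates, which carry no build name and do not match GRCm38. Scaled to library size with TMM, it was at 717, 803, 789, 780 and 750 CPM in *Ncr1*+/+ ILC1s and at 823, 864, 875, 929 and 901 CPM in *Ncr1*gfp/gfp ILC1s. Every *Ncr1*gfp/gfp library was above every *Ncr1*+/+ library, which was also the case, in one or the other direction, for 3.11% of all tested genes. The means were 768 ± 34.6 CPM and 878 ± 40.0 CPM (SD, n = 5 each). *Cd244* was thus 1.14-fold higher without NKp46 (95% interval 1.07 to 1.22), at a log2 fold change of 0.19 with a standard error of 0.05 (edgeR quasi-likelihood test with Benjamini-Hochberg adjustment, adjusted p = 0.0381). The two-sided exact permutation test over libraries gave p = 0.00794, the smallest that 5 against 5 libraries allow. The adjusted p-value passed 0.05 on leaving out *Ncr1*gfp/gfp replicate 1 (0.0225) or *Ncr1*+/+ replicate 2 (0.0354). It did not on leaving out any of the 8 others, when it lay between 0.0537 and 0.105 with log2 fold changes of 0.17 to 0.20.

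*Cd48*, which encodes the glycolipid-anchored ligand of CD244, lies at 173612186 to 173635388 on the same strand. It was at 232, 205, 219, 203 and 225 CPM in *Ncr1*+/+ ILC1s and at 217, 225, 214, 198 and 193 CPM in *Ncr1*gfp/gfp ILC1s. The libraries of the genotypes were interleaved. The log2 fold change was -0.05 (95% interval -0.18 to 0.08), and the gene did not pass the test (edgeR quasi-likelihood test with Benjamini-Hochberg adjustment, adjusted p = 0.847). The number of *Cd244* reads per *Cd48* read in a library, which does not depend on the scaling, was 3.09, 3.92, 3.60, 3.85 and 3.33 in *Ncr1*+/+ ILC1s and 3.80, 3.84, 4.09, 4.68 and 4.67 in *Ncr1*gfp/gfp ILC1s. The ranges met in the 3.80 to 3.92 interval. On the log2 scale the difference in this ratio was 0.24, between 1.83 ± 0.14 in *Ncr1*+/+ and 2.07 ± 0.15 in *Ncr1*gfp/gfp (SD, n = 5 each), with a two-sided exact permutation p of 0.0476, or 0.0952 after Benjamini-Hochberg adjustment over the 2 ratios tested.

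*Slamf7* encodes CRACC (CD319), a self-binding receptor that works through EAT-2 in NK cells. It was at 629, 627, 711, 680 and 655 CPM in *Ncr1*+/+ ILC1s and at 733, 667, 714, 679 and 711 CPM in *Ncr1*gfp/gfp ILC1s. The values overlapped, and the log2 fold change of 0.08 (95% interval -0.02 to 0.19) did not pass the test (edgeR quasi-likelihood test with Benjamini-Hochberg adjustment, adjusted p = 0.538). It shares its stretch of chromosome 1, from 173562534 to 173583168, with the microRNA gene *Mir7683* on the same strand, which held 57 counts in all libraries together.

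*Ly9* (CD229) and *Cd84* encode self-binding receptors that use SAP in T cells, and both had lower means without NKp46. *Ly9*, a minus-strand gene between 173518744 and 173537541, was at 327, 263, 278, 273 and 256 CPM in *Ncr1*+/+ ILC1s and at 247, 209, 257, 249 and 257 CPM in *Ncr1*gfp/gfp ILC1s. All but 1 of the *Ncr1*+/+ libraries lay above all *Ncr1*gfp/gfp libraries. Its log2 fold change was -0.20 with a standard error of 0.07 and an interval of -0.35 to -0.05 (edgeR quasi-likelihood test with Benjamini-Hochberg adjustment, adjusted p = 0.223). The exact permutation test of this gene alone, unadjusted, gave p = 0.0238.

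*Cd84*, a plus-strand gene between 173769828 and 173820849, was at 155, 126, 147, 129.9 and 137 CPM in *Ncr1*+/+ ILC1s and at 114, 111, 107, 139.7 and 134 CPM in *Ncr1*gfp/gfp ILC1s. The *Ncr1*gfp/gfp replicates 4 and 5 lay within the *Ncr1*+/+ range and the other three below it. The log2 fold change was -0.20 with a standard error of 0.08 and an interval of -0.37 to -0.03 (edgeR quasi-likelihood test with Benjamini-Hochberg adjustment, adjusted p = 0.317), and the exact permutation test of the gene alone gave p = 0.0794. The intervals of *Ly9* and *Cd84* both exclude 0 when read singly, and neither gene passed once all tested genes were taken into account, under any of the alternatives tried.

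*Slamf1* (SLAM, CD150) and *Slamf6* (Ly108) are the receptors best known from T cells, B cells and developing innate-like T cells, and both were close to the limit of detection. *Slamf1* had 0, 7, 21, 5 and 19 counts in *Ncr1*+/+ libraries and 8, 12, 25, 15 and 5 counts in *Ncr1*gfp/gfp libraries. With so few counts its log2 fold change of 0.43 had an interval from -1.12 to 1.98, and a difference of 2-fold in either direction was not detectable at this depth. Its sign turned when the library of each genotype with the most hepatocyte transcripts was left out (-0.23). *Slamf6* had 10 counts in all, 7 of them in *Ncr1*+/+ replicate 2, 2 in *Ncr1*gfp/gfp replicate 1 and 1 in *Ncr1*gfp/gfp replicate 5. It was at 0 in the other 7 libraries, which allows up to 3 counts, or at most 0.178 CPM, in each. The limit set by 3 counts covers counting error only. The *Slamf6* stretch of chromosome 1, from 173847593 to 173879089, also holds *Gm37065* on the other strand, which had 2 counts.

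*Sh2d1b1* encodes EAT-2, the adaptor of NK cells, and lies on chromosome 1 from 172207455 to 172215793, more than 1 Mb from the receptor genes. It was at 47.8, 53.95, 56.5, 59.5 and 48.4 CPM in *Ncr1*+/+ ILC1s and at 54.7, 65.9, 70.5, 66.7 and 63.7 CPM in *Ncr1*gfp/gfp ILC1s. Only *Ncr1*gfp/gfp replicate 1 lay within the *Ncr1*+/+ range. The ratio of the genotypes was 1.21-fold (95% interval 1.06 to 1.37), at a log2 fold change of 0.27 with a standard error of 0.09 (edgeR quasi-likelihood test with Benjamini-Hochberg adjustment, adjusted p = 0.151). The exact permutation test of the gene alone, unadjusted, gave p = 0.0238. The related gene *Sh2d1b2* had 1 count, in *Ncr1*gfp/gfp replicate 5. Reads that match both genes equally would be left out of the counts. How alike their sequences are was not checked, so the count of *Sh2d1b1* may be too low.

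*Sh2d1a*, the X-linked gene of SAP, had 23, 21, 36, 16 and 22 counts in *Ncr1*+/+ libraries and 35, 23, 11, 21 and 28 counts in *Ncr1*gfp/gfp libraries. The lowest and the highest CPM were both in *Ncr1*gfp/gfp libraries, at 0.582 and 2.22. The log2 fold change was 0.16 with an interval from -0.87 to 1.20, and it turned to -0.086 without *Ncr1*gfp/gfp replicate 1. Every library held RNA of male cells, with the Y-linked *Ddx3y* at 133 to 170.5 CPM, while *Xist*, the transcript of the silenced X chromosome, had between 0 and 20 counts.

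At the level of RNA, the transcript of EAT-2 was far more abundant than that of SAP, which rested on 11 to 36 counts in a library. The proteins were not measured here. Per kilobase of exon, *Sh2d1b1* was 21.1 to 49.4 times as abundant as *Sh2d1a* in *Ncr1*+/+ libraries and 16.5 to 81.2 times in *Ncr1*gfp/gfp libraries. The log2 ratio of *Sh2d1a* to *Sh2d1b1* reads was -5.52 ± 0.50 in *Ncr1*+/+ and -5.70 ± 0.85 in *Ncr1*gfp/gfp (SD, n = 5 each), a difference of -0.18 that was smaller than either SD (p = 0.675 in an exact permutation test, two-sided, and the same after adjustment over the 2 ratios). The difference was 0.12 without *Ncr1*gfp/gfp replicate 3.

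*Sh2d2a*, on chromosome 3 from 87650677 to 87659644, was at 374, 334, 331, 369 and 376 CPM in *Ncr1*+/+ ILC1s and at 434, 386, 373, 349 and 336 CPM in *Ncr1*gfp/gfp ILC1s. Here too the libraries of the genotypes were mixed. The log2 fold change of 0.07 (95% interval -0.06 to 0.21) did not pass the test (edgeR quasi-likelihood test with Benjamini-Hochberg adjustment, adjusted p = 0.762).

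**Figure D2:**
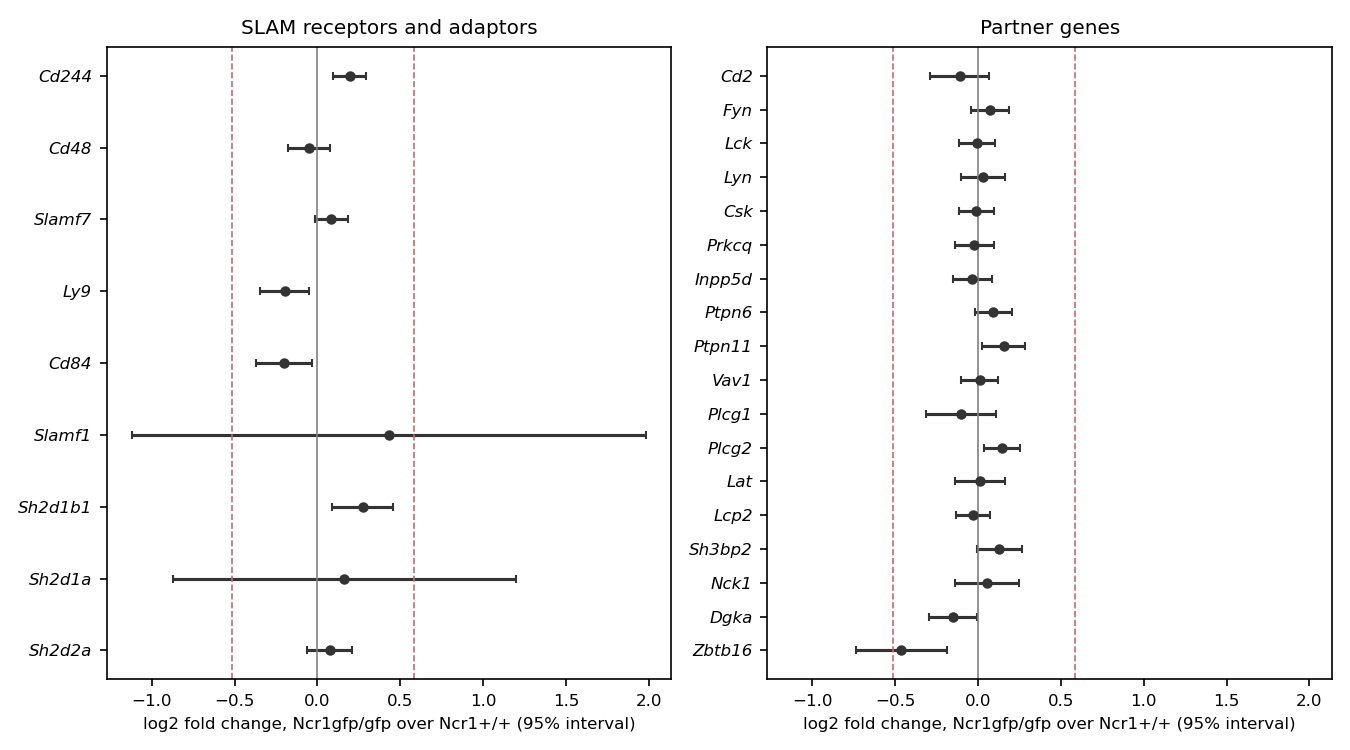
Log2 fold change of *Ncr1*gfp/gfp over *Ncr1*+/+ ILC1s with its 95% interval for the 9 tested SLAM receptor and adaptor genes (left) and the 18 tested partner genes (right). Dashed lines mark fold changes of 0.7 and 1.5. No point lies outside the lines, and the intervals of *Slamf1* and *Sh2d1a*, the genes with few counts, are wide.

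Levels were compared between genes after division by the total exon length given beside the counts. That length can differ from the length of the transcripts present in these cells, which was not measured. In *Ncr1*+/+ ILC1s, *Cd244* had the highest mean at 204 ± 9.20 CPM per kb, followed by *Cd48* at 189.7 ± 11.1 and *Slamf7* at 166 ± 8.96 CPM per kb (SD, n = 5 each). Between 98.2% and 98.7% of all tested genes had a lower level per kb than these 3 receptors. The ranges of *Cd244* and *Cd48* overlapped, as did those of *Cd48* and *Slamf7*.

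*Ly9* followed at 108 ± 10.8 CPM per kb, *Sh2d2a* at 75.0 ± 4.71, *Sh2d1b1* at 37.1 ± 3.53 and *Cd84* at 22.2 ± 1.92 CPM per kb, with no overlap of neighbours in this order. *Sh2d1a* was at 1.25 ± 0.402 CPM per kb, above 12.7% of the tested genes, and *Slamf1* at 0.197 ± 0.180, above 1.65% of them. *Slamf6* came last, in a range that overlapped that of *Slamf1*. Per kb, the transcripts of CD244 and of its ligand CD48 thus had the highest means of the system, and those of SAP, *Slamf1* and *Slamf6* the lowest. The place of *Cd48* rests on the division by exon length. Without it, *Cd48* in *Ncr1*+/+ ILC1s was at 217 CPM, below *Slamf7* (661 CPM), *Sh2d2a* (357 CPM) and *Ly9* (280 CPM).

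In *Ncr1*gfp/gfp ILC1s the means were 234 ± 10.6 CPM per kb for *Cd244*, 183 ± 11.7 for *Cd48*, 176 ± 6.83 for *Slamf7*, 94.1 ± 7.75 for *Ly9* and 78.9 ± 8.02 for *Sh2d2a*. The ranges of *Cd244* and *Cd48* did not meet in this genotype, whereas those of *Ly9* and *Sh2d2a* did. All 10 genes came in the same order in 7 of the 10 libraries, and the other 3 libraries each had 1 exchange between neighbours. Of the summed receptor level per kb, *Cd244* made up 29.6 ± 1.71% in *Ncr1*+/+ and 33.1 ± 1.44% in *Ncr1*gfp/gfp ILC1s, *Cd48* 27.5 ± 1.32% and 25.9 ± 1.84%, and *Slamf7* 24.1 ± 1.12% and 24.9 ± 0.836%. *Ly9* made up 15.6 ± 1.36% and 13.3 ± 0.961%, and *Cd84* 3.22 ± 0.215% and 2.74 ± 0.324%.

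**Figure D3:**
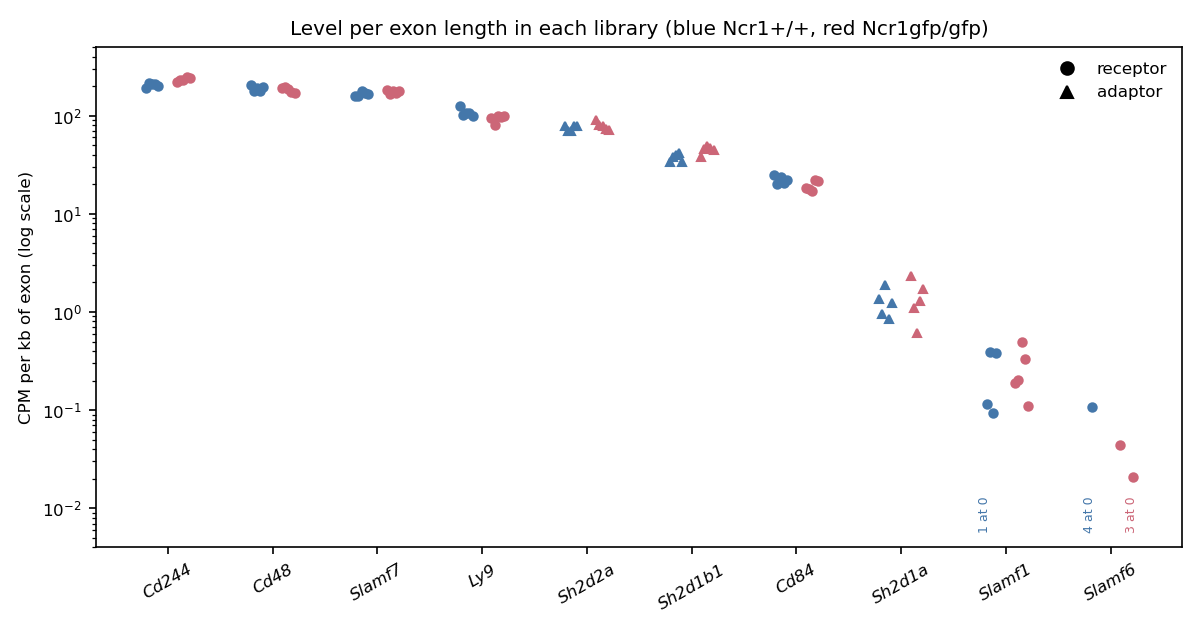
CPM per kb of exon on a log axis for the 7 receptor genes (circles) and 3 adaptor genes (triangles), 1 point per library, *Ncr1*+/+ in blue and *Ncr1*gfp/gfp in red. Libraries at 0 cannot be drawn on a log axis and are given as counts at the foot. The points fall from *Cd244*, at a mean of 204 CPM per kb in *Ncr1*+/+ ILC1s, to *Slamf6*, which was at 0 in 7 libraries.

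Replicate libraries agreed most closely for the most abundant receptors and least for those with few counts. The coefficient of variation was 4.50% for *Cd244* in *Ncr1*+/+ and 4.55% in *Ncr1*gfp/gfp ILC1s, 5.40% and 3.88% for *Slamf7*, and 5.86% and 6.36% for *Cd48*. It reached 32.1% and 46.0% for *Sh2d1a* and 91.2% and 56.3% for *Slamf1*. *Cd244* rested on 12782 to 18904 counts in a library, against at most 36 for *Sh2d1a* and 25 for *Slamf1*.

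The 7 receptor genes lie next to each other on chromosome 1, in the order *Cd244*, *Ly9*, *Slamf7*, *Cd48*, *Slamf1*, *Cd84* and *Slamf6*, which is also their order in the RefSeq annotation of GRCm38.p6. *Cd244*, *Ly9*, *Slamf7* and *Cd48* had mean log2 fold changes of 0.19, -0.20, 0.08 and -0.05 in that order, so the estimates of direct neighbours differed in sign. The intervals of *Slamf7* and *Cd48* included 0, so the signs of these genes are uncertain. Of 43 other genes in the cluster or within 0.5 Mb of it, 24 were tested and none was called (edgeR quasi-likelihood test). No neighbour had an adjusted p-value under 0.05. An unadjusted one under 0.05 was found for 4 of the 24, or 16.7%, beside 11.4% of all tested genes. The 4 were *Dedd* (higher) and *Dcaf8*, *Pea15a* and *Igsf8* (lower), and DESeq2 gave a count of 5 neighbours. The median log2 fold change of the 24 tested neighbours was -0.03, with 11 higher and 13 lower.

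**Figure D4:**
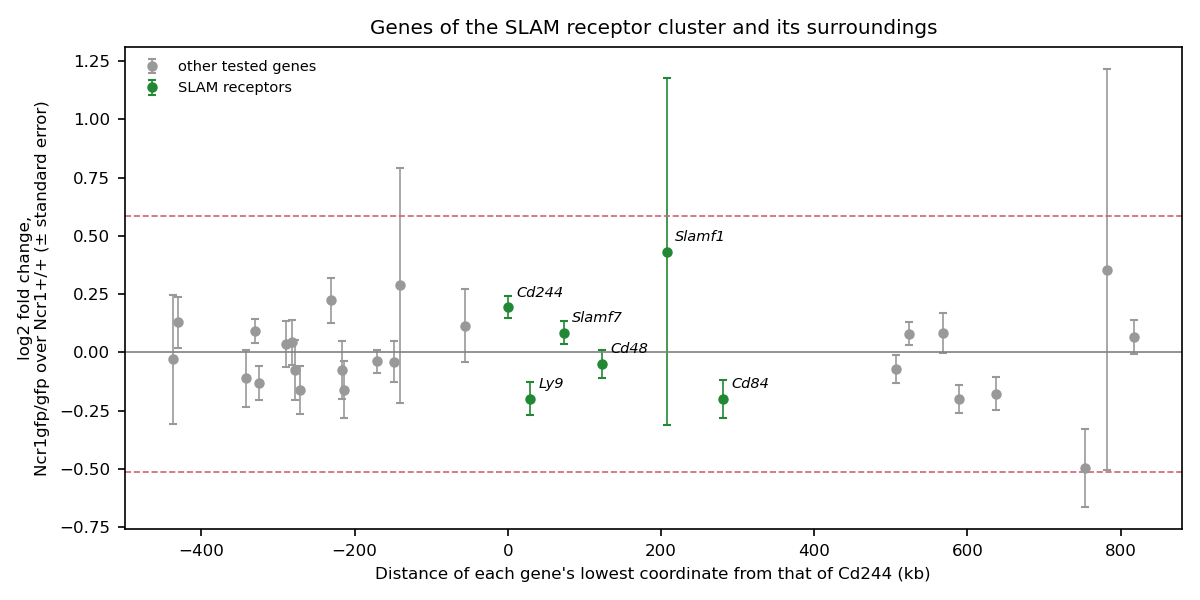
Log2 fold change of *Ncr1*gfp/gfp over *Ncr1*+/+ ILC1s (± standard error) against the distance of each gene's lowest coordinate from that of *Cd244* in kb, for the 6 tested receptors (green) and the 24 tested genes around them (grey). Dashed lines mark fold changes of 0.7 and 1.5. The receptors lie on either side of 0, from -0.20 for *Ly9* and *Cd84* to 0.43 for *Slamf1*.

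Further genes of the pathway were taken from a list of 21 known partners, of which 18 were tested and none was called (edgeR quasi-likelihood test). At an unadjusted p-value under 0.05 there were 4 of the 18, or 22.2%, beside 11.4% of all tested genes. The 4 were *Zbtb16*, *Ptpn11*, *Dgka* and *Plcg2*, and DESeq2 also gave a count of 4. The median log2 fold change of the 18 tested partners was 0.0015, with 9 higher and 9 lower. The kinases *Fyn*, *Lck*, *Lyn*, *Csk* and *Prkcq* had log2 fold changes between -0.02 and 0.07. The 95% interval for *Fyn*, the kinase that binds SAP, was -0.04 to 0.19.

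The largest difference among the partners was that of *Zbtb16*, which encodes PLZF, a transcription factor of innate-like T cells and innate lymphoid precursors whose induction in natural killer T cells needs SLAM receptors and SAP. It was at 40.5, 44.4, 48.0, 41.1 and 49.96 CPM in *Ncr1*+/+ ILC1s and at 25.3, 26.1, 42.7, 29.4 and 39.1 CPM in *Ncr1*gfp/gfp ILC1s. The genotypes overlapped through *Ncr1*gfp/gfp replicate 3. The log2 fold change was -0.46 with a standard error of 0.13 (edgeR quasi-likelihood test with Benjamini-Hochberg adjustment, adjusted p = 0.0893). Without that library it was -0.58 and the gene was called (adjusted p = 0.0241 in the same edgeR test). That library had the highest *Zbtb16* value of its genotype, so leaving it out widens the difference by itself. The gene was not called when any other single library was left out. The same library held more hepatocyte transcripts than any other, and their part in the value was not tested.

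*Ptpn11*, which encodes the phosphatase SHP-2 that competes for the same receptor motifs, was at a mean of 162 CPM in *Ncr1*+/+ and 181 CPM in *Ncr1*gfp/gfp ILC1s, at a log2 fold change of 0.16 with a standard error of 0.06 (edgeR quasi-likelihood test with Benjamini-Hochberg adjustment, adjusted p = 0.315). *Dgka*, a diacylglycerol kinase that SAP restrains in T cells, was at 212 and 191 CPM, at a log2 fold change of -0.15 with a standard error of 0.07 (adjusted p = 0.393 in the same edgeR test). *Plcg2*, which encodes a phospholipase Cγ, was at 401 and 444 CPM, at a log2 fold change of 0.15 with a standard error of 0.05 (adjusted p = 0.218 in the same edgeR test). The SLAM-related genes *Slamf8* and *Slamf9*, known from myeloid cells, were at or near 0. *Slamf8* had 9, 4, 0, 6 and 6 counts in *Ncr1*+/+ libraries and 6 in *Ncr1*gfp/gfp replicate 3 with 0 in the others, and *Slamf9* had 18 counts in all.

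SLAM receptors are also carried by other leukocytes, so markers of those cells were summed in each library, and p-values were adjusted over the 11 sums examined. The 8 ILC1 markers measured summed to 5930 to 6334 CPM in *Ncr1*+/+ and 4329 to 4556 CPM in *Ncr1*gfp/gfp ILC1s, a fall that the deletion fixes, since the sum includes *Ncr1*. Without *Ncr1* they summed to 3989 to 4251 and 3973 to 4271 CPM, and of these 7 *Il7r* was called lower. *Itga1* was higher and passed the adjusted p-value but not the fold change, so the similar sums hide differences in both directions. The 8 T cell markers summed to 461 to 579 CPM and 633 to 835 CPM, most of it from *Cd3g*, and without *Cd3g* to 9.14 to 26.6 and 36.8 to 100.5 CPM (two-sided exact permutation p = 0.00794 for each sum, adjusted 0.0218). Of these, *Cd3e* and *Cd8a* were called higher, and *Cd3g* passed the adjusted p-value but not the fold change. The means of 7 of the 8 T cell markers were higher in *Ncr1*gfp/gfp ILC1s, and that of 1 was lower. *Cd3e*, a defining T cell marker, was at 2.80 to 6.85 CPM in *Ncr1*+/+ and 9.05 to 38.8 CPM in *Ncr1*gfp/gfp libraries. None of the T cell markers was at 0 in every library.

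The 8 myeloid markers summed to 1340 to 1503 CPM in *Ncr1*+/+ and 1670 to 1786 CPM in *Ncr1*gfp/gfp libraries (two-sided exact permutation p = 0.00794, adjusted 0.0218), and this difference came from *Itgax*, which was at means of 1401 and 1707 CPM. The means of the 7 others were all lower in *Ncr1*gfp/gfp ILC1s, and without *Itgax* the sums of 14.7 to 62.7 and 9.46 to 40.9 CPM overlapped (two-sided exact permutation p = 0.476). The sums of 7 NK cell markers (47.3 to 61.9 and 54.5 to 96.1 CPM), 5 B cell markers (0.561 to 5.06 and 2.49 to 5.16 CPM), 7 markers of ILC2s and ILC3s (160 to 183 and 134 to 177 CPM) and 6 hepatocyte markers (1.68 to 31.6 and 1.37 to 56.2 CPM) overlapped between the genotypes. *Klra4* of the NK cell list and *Il22* and *Il17a* of the ILC3 markers were at 0 in every library. Of the NK cell markers, 5 had higher means in *Ncr1*gfp/gfp ILC1s and 1 had a lower mean. Their sum did not pass (two-sided exact permutation p = 0.103, adjusted 0.204). *Cd244* and *Sh2d1b1* thus differed in the same direction as the T cell sums, and also as *Itga1* and *Itgax*. *Ly9* and *Cd84* differed in the other. The part of T cells or NK cells in these values was not tested.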

How the data were processed

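RNA from sorted liver ILC1s was amplified with the SMART-Seq v4 kit and sequenced as single reads of 51 cycles. The authors used Trimmomatic and FASTP for trimming, mapped the reads with STAR (version 020201) to mm10, counted them per gene with HTSeq (version 0.6.0) at its defaults and deposited raw counts without normalisation. At those defaults, reads that map to several places are left out, which lowers counts of near-identical genes. The kit does not mark strand, so overlapping genes cannot be told apart. The coordinates and exon lengths beside the counts carry no build name.

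From the counts, genes were filtered with filterByExpr, normalised by TMM and tested in R 4.3.3 with edgeR 4.0.16 (quasi-likelihood), with Benjamini-Hochberg adjustment over 11463 genes. Calls needed a fold change above 1.5 or below 0.7 at an adjusted p under 0.05, as in the study's methods. For single values, exact permutation tests (two-sided) were run over the 5 and 5 libraries. DESeq2 1.42.0 and limma 3.58.1 served as alternatives, and the code was tested on simulated counts. The genes named were the 10 members, *Ncr1*, partner genes that were called, failed the filter or were among the 3 others with the largest change, marker genes called or at 0 in every library, and sex-linked genes. Kinases of the partner list were also named as a group. *Itga1*, *Itgax*, *Cd3g*, *Plcg2* and 4 neighbours of the receptor genes were added after their values were seen. Members, lists and tests were chosen with earlier results of these data known. Library totals lay between 15796253 and 22623133 counts. All 20 pairs of libraries of a genotype differed by more than sampling noise. The sources do not say whether a library came from a single mouse, so p-values may measure technical spread. Names of all 10 members were matched to RefSeq GRCm38.p6, *Cd244* by its synonym. Sequences were not used here, and some genes of the partner and marker lists are not reported here.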

Additional observations from a re-analysis of the deposited data

Results flagged for a closer look

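In each genotype, the highest and the lowest library were compared with their nearest neighbour for every receptor and adaptor gene and for the marker sums. Of 40 groups of 5 libraries examined, 4 held a library that stood apart by Dixon's criterion at 95%. About 2 would be expected for independent groups of values with a normal spread, which counts at or near 0 do not have. *Slamf6* was at 0.309 CPM in *Ncr1*+/+ replicate 2, a value that rests on 7 counts. It was at 0 in the other *Ncr1*+/+ libraries, so any count in that library would have met the criterion. *Ly9* was at 209 CPM in *Ncr1*gfp/gfp replicate 2, with the next *Ncr1*gfp/gfp library at 247 CPM. The sum of hepatocyte markers was 31.6 CPM in *Ncr1*+/+ replicate 1, with the next library of that genotype at 6.01 CPM. It was 56.2 CPM in *Ncr1*gfp/gfp replicate 3, with the next at 5.06 CPM.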

How the results depend on the processing

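The count of called genes over all tested genes was 84 and rose to 155 with no condition on the fold change, 131 with no filter on low counts and 138 with the likelihood ratio test. It fell to 23 with an absolute log2 fold change above 1, and leaving out each library in turn gave 60 to 98. The receptors and adaptors gave 1 call with no condition on the fold change, *Cd244*, and 0 under the 20 other alternatives. The partner genes gave 0 calls except 1, *Zbtb16*, without *Ncr1*gfp/gfp replicate 3 (range 0 to 1 over the libraries left out) and 1 when both libraries highest in hepatocyte markers were left out, an alternative chosen after seeing the data.

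*Cd244* had an adjusted p under 0.05 in 9 of 19 alternatives, among them DESeq2, limma-voom and the replicate block. It was 0.0501 with the likelihood ratio test and 0.165 without both hepatocyte-high libraries, and its log2 fold change stayed between 0.17 and 0.22 in all 19. Signs turned for *Sh2d1a* (-0.086 without *Ncr1*gfp/gfp replicate 1, with a range of -0.086 to 0.36 over the libraries left out), for *Slamf1* (-0.23 without both hepatocyte-high libraries) and for the ratio of *Sh2d1a* to *Sh2d1b1*, whose difference lay between -0.45 and 0.12 as each library was left out. For these changes the cause was not tested beyond the smaller number of libraries.

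The replicate numbers of the labels did not pair the libraries: deviations of same-numbered libraries correlated at -0.03 to 0.06, and 1 of 5 *Ncr1*gfp/gfp libraries correlated best with its own number. With these numbers as a replicate block, 87 genes and 0 receptors or adaptors were called, and *Cd244* had an adjusted p of 0.0473 (edgeR quasi-likelihood test). Depth limits *Slamf1*, *Slamf6* and *Sh2d1a*, for which a difference of 1.5-fold was not detectable.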
